A study of Drosophila melanogaster with 3 samples.

Results

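Of the 5786 reproducible az2-GFP peaks of the Drosophila melanogaster embryo, 1427 (24.7%, 95% interval 23.6 to 25.8) had their summit inside an intron of a protein-coding gene that spans less than 50 kb, away from every annotated start of transcription. A summit was kept when it lay more than 500 bp from any annotated transcription start site (TSS) and in no exon or untranslated region, and when the longest protein-coding gene around it was below that length. The choice used positions and annotation only, not the height of a peak. The members lay in 819 host genes. Of the other reproducible peaks, 2652 lay within 500 bp of a TSS, 896 in distal intergenic DNA and 624 in introns of longer genes.

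The peaks came from chromatin immunoprecipitation and sequencing (ChIP-seq) with an antibody against GFP, on embryos of both sexes aged 0 to 16 h from a transgenic line that stably makes az2, a zinc finger protein, with GFP fused to its C-terminus. The 3 biological replicates form 1 group, so no conditions were compared, and embryos without the tag were not analysed here. Whole embryos were used, so strong binding in few cells and weak binding in many cannot be told apart. The promoter that drives the transgene is not given in the sources used here.

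Introns of fly genes hold many of the enhancers that switch genes on in particular cells and stages. The first intron of a gene is often its longest, and regulatory DNA is often found there. Zinc finger proteins read short DNA sequences, and a ChIP-seq peak marks DNA that was bound directly or was held through other proteins. A peak in an intron does not say which gene it acts on, if any, so a member is named here by the longest protein-coding gene around it.

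The stretches of 30 bases that follow are shown because they carry a short sequence that was more frequent near members than in other intronic DNA of shorter genes, and that had the largest share of members among 10 such words, as described further on. All are from the RefSeq sequence of release 6 (dm6), 5′ to 3′, read on the strand given, with the word of 8 bases in capitals. They are the 8 members of highest signal among those that held the word within 100 bp of the summit and were covered in all 3 replicates, on the arms whose sequence is shown here.
ImpL2, chr3L:4228295-4228324, plus strand: accacaaggtaCACTGAGAgaaaggattcg
CG6959, chr3R:11849895-11849924, minus strand: ttctatgcaggCACTGAGAgaaaaaaagtg
bves, chrX:21059091-21059120, plus strand: gtcaataatcaCACTGAGAgaaaatcctgt
Tmhs, chr3L:1886307-1886336, minus strand: tgtgactagcaCACTGAGAagaaattgcgt
aop, chr2L:2163717-2163746, minus strand: aagacgtgatgCACTGAGAgaaatcaggtt
gukh, chr3R:18995897-18995926, minus strand: atttggttaagCACTGAGAtcttgtctaaa
RhoGAP18B, chrX:19155268-19155297, plus strand: cgcagtgtaatCACTGAGAaaagtcaatgg
mew, chrX:13234232-13234261, plus strand: atgccataataCACTGAGAaaaacaggtga

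A second word, which shares its last bases with the first bases of the word above, is shown at the 4 highest such members that held it. The capitals mark this second word of 8 bases.
Gug, chr3L:8458404-8458433, minus strand: caacggacagaCTACACTGataaaaaaaat
Tpr2, chr2L:16500695-16500724, plus strand: tcttacgcacgCTACACTGtaccaaagcga
dlp, chr3L:14666060-14666089, plus strand: gcctgccccttCTACACTGcccaaaaatag
CG34417, chrX:6549801-6549830, plus strand: caggggctcagCTACACTGaaagaaacgag

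The 4 highest members on the arms shown held none of the 10 best words within 100 bp of the summit. Over all members, with those used to rank the words, 19.1% held at least 1. The 4 without one therefore do not show that high members lack the words. Their 30 bases centred on the summit are given on the plus strand, with no capitals.
CG11050, chr2L:6612711-6612740: ttagattttgtattgcttttatcatttagt
Lk6, chr3R:11761032-11761061: gtggcacataaactaaacgtatttcactga
CG32772, chrX:4910346-4910375: caaaaatttaaagttaagcggttataaaac
Trl, chr3L:14759502-14759531: ggactattttttccattggctagtttttat

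The highest members reached the upper end of the whole list. The signal value that the authors deposited for each peak is given here from the pooled reads. Its unit is not given in the sources used here; it was taken as linear and is compared only within a list. The highest member lay in CG11050 (FBgn0031836, chr2L:6612479-6612922) with a signal of 3300, which ranked 5 among all reproducible peaks. Its values were 825 in replicate 1, 1368 in replicate 2 and 1122 in replicate 3. It sat in an intron of 140 bp, the shortest intron of any member, 1038 bp from the nearest TSS. The second lay in the first intron of Lk6 (FBgn0017581), a kinase gene of the family that phosphorylates the translation factor eIF4E, at chr3R:11760853-11761262. Its signal was 2576, with 612, 1146 and 834 in replicates 1 to 3. The third, in the first intron of CG32772 (chrX:4910030-4910592), had a signal of 2418, with 536, 977 and 888. In each of these 3 peaks replicate 2 had the largest value and replicate 1 the smallest.

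**Figure D1:**
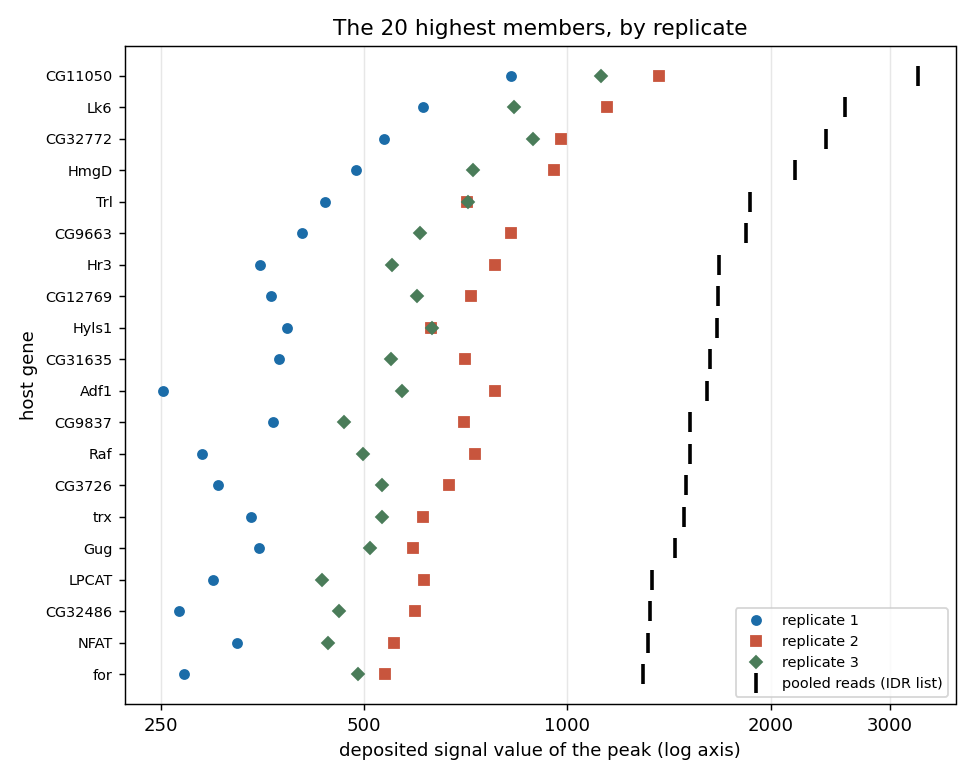
Deposited signal value (log axis) of the 20 highest members that all 3 replicates cover, by host gene, in each replicate list and in the list from pooled reads. Replicate 1 lies lowest in all 20 rows, and the replicate signal medians over the members are 54.6, 93.6 and 81.3; the lists were not put on a common scale.

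Of the 20 highest members, 7 lay in genes known to encode chromatin proteins or transcription factors. HmgD, a DNA-bending protein with an HMG box, had a member of signal 2174 (487, 956 and 725 in replicates 1 to 3) that lay 564 bp from a TSS. Trl, which encodes the GAGA factor, had one of 1863 (438, 710 and 712). That of Hr3, a nuclear receptor of the ecdysone response, reached 1676 (351, 781 and 551) and lay 7917 bp from the nearest TSS, the farthest of the 20. Adf1, a DNA-binding transcription factor, had 1608 (252, 782 and 569). In trx, the histone methyltransferase Trithorax, the value was 1489 (340, 612 and 531), and in Gug, the corepressor Atrophin, it was 1445 (350, 590 and 510). NFAT, another transcription factor, had 1318 (324, 554 and 442). These 7 were picked out after their values were seen, and no test was made of them. The share of such genes among all hosts was not counted, so 7 of 20 has no background here. Introns of 2 protein-coding genes overlapped at the member of HmgD and of 3 at that of Hr3, so these hosts are less certain.

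The rest of the 20 were mixed in function or have no role given here. Hyls1, a gene of a centriole protein, had a member of signal 1663, Raf, the kinase between Ras and the MAP kinase cascade, had 1518, and LPCAT, a lysophospholipid acyltransferase, had 1335. The lowest of the 20, in for, a cGMP-dependent protein kinase gene, had 1295. CG9663 had 1840, CG12769 1670, CG31635 1626, CG9837 1521, CG3726 1500 and CG32486 1325. Introns of 2 protein-coding genes overlapped at the member of Hyls1 as well. Over the 20 the summits of the 3 replicates lay at most 32 bp from the pooled summit.

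Most members were far lower than these. The median signal was 221, with quartiles at 165 and 347 and a range of 133 to 3300. The lower end is set by the authors' threshold, since the reproducible peaks are exactly the 5786 pooled peaks of highest signal. The median was 216 in introns of long genes, 212 in distal intergenic DNA and 260 near a TSS. Of the members, 661 (46.3%) were among the 2893 reproducible peaks of highest signal, against 43.9% of the peaks in introns of long genes and 43.4% of the intergenic ones. Neither difference passed the test: the odds ratio was 1.10 (0.908 to 1.34) against long genes, with an adjusted p = 0.335, and 1.12 (0.947 to 1.34) against intergenic peaks, with an adjusted p = 0.251 (two-sided Fisher's exact tests over peaks, Benjamini-Hochberg over 6 comparisons). Near a TSS 56.0% were in that upper part, and the odds ratio of members was 0.678 (0.595 to 0.773; adjusted p = 2.33e-08, same Fisher's exact test). Peaks of one pooled list are not biological replicates, so these p-values cover counting error only.

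Most members were found in each replicate. For this count the top 5786 peaks by signal were kept from every replicate list, and a member was covered when its summit lay in such a peak. All 3 replicates covered 1012 members (70.9%, 68.5 to 73.3), beside 72.6% of all reproducible peaks. A further 296 were covered in 2 replicates, 113 in 1 and 6 in none. The share was 67.9% in introns of long genes (odds ratio of members 1.15, 0.933 to 1.42, adjusted p = 0.251) and 68.4% in intergenic DNA (1.13, 0.935 to 1.35, adjusted p = 0.251 by the same Fisher's exact test), so neither difference passed. Near a TSS it was 75.9%, with an odds ratio of 0.774 (0.668 to 0.897, adjusted p = 0.00168 by Fisher's exact test). This last difference passed the test in 5 of 6 settings that changed the TSS distance, the gene span or the replicates used, at odds ratios of 0.653 to 0.804. Cover in replicates 2 and 3 alone gave 0.929 (adjusted p = 0.390, Fisher's exact test). With whole replicate lists nearly every peak was covered, 1408 of 1427 members and 2592 of 2652 near a TSS. The odds ratio was then 1.72 (adjusted p = 0.128, Fisher's exact test), and 1.02 with lists of 2 times the length. The difference was thus not seen in longer lists, where few peaks were left uncovered. Nor was it seen among the 2893 reproducible peaks of highest signal, where 653 of 661 members and 1446 of 1485 peaks near a TSS were covered. The odds ratio there was 2.20 (adjusted p = 0.115, Fisher's exact test). Members were lower in signal than peaks near a TSS, and cover rose with signal. Whether cover differed at equal signal was not tested.

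Height and cover went together, which follows in large part from how they were defined. The pooled signal comes from the reads of the same replicates, and cover needs a high rank in each replicate list. Of the 357 members of lowest signal, 133 to 165, all 3 replicates covered 14.6%. The share was 72.0% of the next 357, 98.6% of the 356 after them and 98.6% of the 357 highest, from 347 up. Over members with a peak in both whole lists, Spearman's rho of the signal was 0.773 between replicates 1 and 2 (n = 1410), 0.791 between 1 and 3 (n = 1415) and 0.832 between 2 and 3 (n = 1415). These are correlations across peaks that share the selection for a high pooled signal, and peaks are not independent replicates. Of the 1408 members with a peak in all 3 whole lists, 875 (62.1%) had every replicate summit within 50 bp of the pooled summit.

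Members were denser than peaks in introns of long genes. The DNA that could hold a member, intronic, outside exons and over 500 bp from a TSS, came to 26.8 Mb in genes below 50 kb. There were 53.2 members per Mb of it (50.5 to 56.0), beside 43.2 reproducible peaks per Mb of all arms together. In the 24.8 Mb of long genes there were 25.2 per Mb (23.3 to 27.2). The ratio was 2.11 (1.92 to 2.32; exact two-sided conditional binomial p = 7.83e-59). Introns of long genes reach farther from a TSS, and the density fell with that distance in both kinds of gene, so the ratio was also taken within classes of distance, chosen after the pooled ratio was known.

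Within these classes the difference was smaller. Between 500 and 1000 bp from a TSS there were 94.9 members per Mb in shorter genes and 71.0 peaks per Mb in long ones, a ratio of 1.34 (1.02 to 1.78, exact p = 0.0370). Between 1000 and 2000 bp the densities were 71.0 and 49.4 per Mb, a ratio of 1.44 (1.13 to 1.84, exact p = 0.00229). Between 2000 and 4000 bp they were 45.7 and 41.6, and the ratio of 1.10 (0.887 to 1.36) did not pass the test (exact p = 0.401). From 4000 to 8000 bp the ratio was 1.53 (1.24 to 1.89, exact p = 3.78e-05), and beyond 8000 bp, with 28.3 and 14.9 per Mb, it was 1.90 (1.53 to 2.34, exact p = 3.11e-09). Each p is from the same exact binomial test, unadjusted, and members of one gene are not independent of each other.

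**Figure D2:**
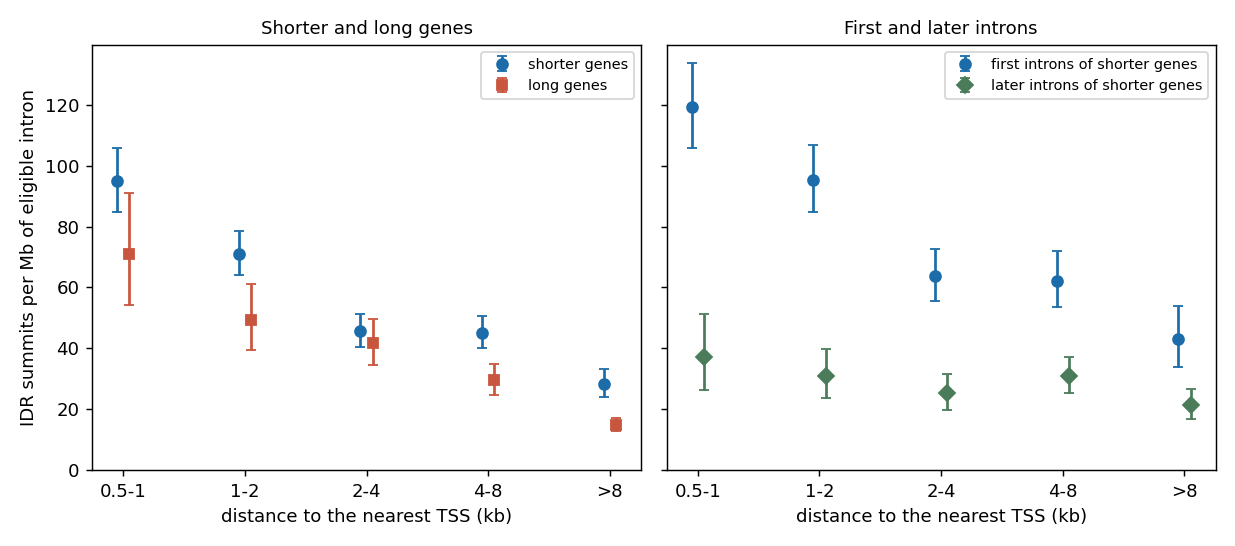
Reproducible summits per Mb of eligible intron by distance to the nearest TSS, with exact Poisson 95% intervals that cover counting error only. On the left, shorter genes (94.9 to 28.3 per Mb) lie above long genes (71.0 to 14.9), with intervals that overlap from 0.5 to 1 kb and from 2 to 4 kb; on the right, first introns of shorter genes lie above later introns in all 5 classes.

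First introns held most members. Of the 1427, 1068 (74.8%) lay in the first intron of at least 1 transcript of the host, while first introns made up 51.1% of the eligible bases. The density was 77.9 per Mb in first introns (73.3 to 82.7) and 27.4 in later ones (24.6 to 30.3), a ratio of 2.85 (2.52 to 3.22; exact two-sided conditional binomial p = 2.20e-75). First introns start beside a TSS, so the ratio was also taken within the classes of distance, which were chosen afterwards. It was 3.19 (2.27 to 4.60) between 500 and 1000 bp, 3.09 (2.33 to 4.14) between 1000 and 2000 bp, 2.52 (1.93 to 3.31) between 2000 and 4000 bp, 2.02 (1.58 to 2.59) between 4000 and 8000 bp and 2.03 (1.46 to 2.81) beyond. Members of one gene are not independent of each other, so the p-value and intervals cover counting error only. Intron length was not held equal in these classes. In first introns the density went from 119 per Mb nearest the TSS to 43.1 per Mb beyond 8000 bp. In later introns it went from 37.3 to 21.3 per Mb.

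The members lay mostly in long introns and away from splice sites. The median intron that held one was 7499 bp long, and 1359 members (95.2%) lay in introns over 1 kb, which made up 85.2% of the eligible bases. The median distance to the nearest splice site was 1400 bp. Within 50 bp of one lay 6 members (0.420%) and 8.64% of the eligible bases. These shares are a description, with no test. The median distance to the nearest TSS was 2103 bp, with quartiles at 1052 and 4876 bp and a maximum of 26394 bp. The host genes of the members spanned a median of 20266 bp. Introns of 2 or more protein-coding genes overlapped at 70 members, whose host is therefore less certain.

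The members nearest each limit of the rule were as follows. In g, a subunit gene of the AP-3 complex, a member of signal 140 lay 503 bp from a TSS, and in l(3)neo38 a peak of signal 287 at exactly 500 bp fell outside. NetA, the gene of Netrin-A, a guidance cue for axons, spans 49917 bp and one of its 5 members had a signal of 393, while Sytbeta, with a span of 50283 bp, fell outside with a peak of 140.

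Density ranged widely between the arms. There were 71.4 members per Mb of eligible intron on X (320 members), 56.5 on 3L, 52.3 on 3R, 48.4 on 2R and 44.5 on 2L. Chromosome 4, small and rich in heterochromatin, had 2 members, or 3.76 per Mb (0.455 to 13.6). X stood above the autosomes together, with 49.5 per Mb, by a ratio of 1.44 (1.27 to 1.63; exact binomial p = 2.85e-08), a comparison chosen after the densities were seen. Embryos of both sexes were pooled, so X and the autosomes differ in copy number, and its part in the result was not tested.

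Host genes were a small share of the genes that could hold a member, and length went with hosting. Of 8609 protein-coding genes below 50 kb with at least 1 eligible base, 819 (9.51%) held a member. No gene was a host among the 2175 with 122 eligible bases or fewer. The share was 0.657% in the next class (123 to 424 bases), 6.0% with 425 to 2544 bases and 31.4% among the 2152 genes with more. A summit also lay within 500 bp of one of the gene's own TSSs in 335 of 819 hosts (40.9%), beside 25.3% of the other genes with eligible bases, a description without a test. Among the genes with most eligible bases the shares were 42.2% of hosts and 22.4% of the others.

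Many members shared a host gene with another, though most hosts held only 1. A single member was found in 509 hosts and 2 in 168, while 142 hosts had 3 or more, with 582 members between them. Neighbouring members of one gene lay a median of 2462 bp apart, with quartiles at 1045 and 5240 bp. The nearest other reproducible summit of any class lay within 1 kb of 352 members (24.7%) and within 5 kb of 981 (68.7%). These counts and distances were not set against other classes of peak or against eligible length, so grouping beyond that was not tested. The peak interval of 131 members (9.18%) overlapped that of another reproducible peak, so these are not separate stretches of DNA.

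Raf (FBgn0003079), the MAP kinase kinase kinase downstream of Ras, held the most, with 11 members over 32990 bp of its 48405 bp. The highest (chrX:2297536-2297889) had a signal of 1518 (288, 731 and 498 in replicates 1 to 3), and the next was 697 (164, 306 and 228). The other 9 ran from 139 to 505. All 3 replicates covered 7 of the 11. None lay in a first intron, and no reproducible summit lay within 500 bp of a Raf TSS. The peak intervals of 2 of the 11 overlapped.

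CHES-1-like, a forkhead transcription factor gene, held 9 members, all in a first intron and within 14773 bp. Their signals were highest at chrX:7706804-7707196 (832, with 166, 399 and 268 in replicates 1 to 3) and chrX:7705524-7705804 (824, with 167, 363 and 298). The lowest 2, at 137 and 145, were covered in 1 replicate each and the other 7 in all 3. In tou, which encodes a chromatin remodelling protein, 9 members had signals of 143 to 541. In tara, a nuclear regulator of the cell cycle and of sleep, 8 members ran from 145 to 1169, and all but the lowest were covered in all 3 replicates. The 8 of apt, a transcription factor of head and tracheal development, ran from 167 to 505.

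Other genes with many members had varied functions. Mnt, the repressor that competes with Myc for Max, had 8 members of signal 148 to 491. In siz, a gene of an Arf exchange factor, 8 ran from 141 to 444, and in tna, a SUMO ligase family gene that acts with trithorax, 8 ran from 135 to 394. With 7 members each stood CG42258, PRAS40, RhoGAP18B, RhoGAP19D and eIF5B, whose highest members were 647, 570, 473, 391 and 366. PRAS40 and CG42258 packed theirs most closely of these 5, into 7444 and 7562 bp. The 8 genes with 8 or more members together held 69 of the 1427.

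**Figure D3:**
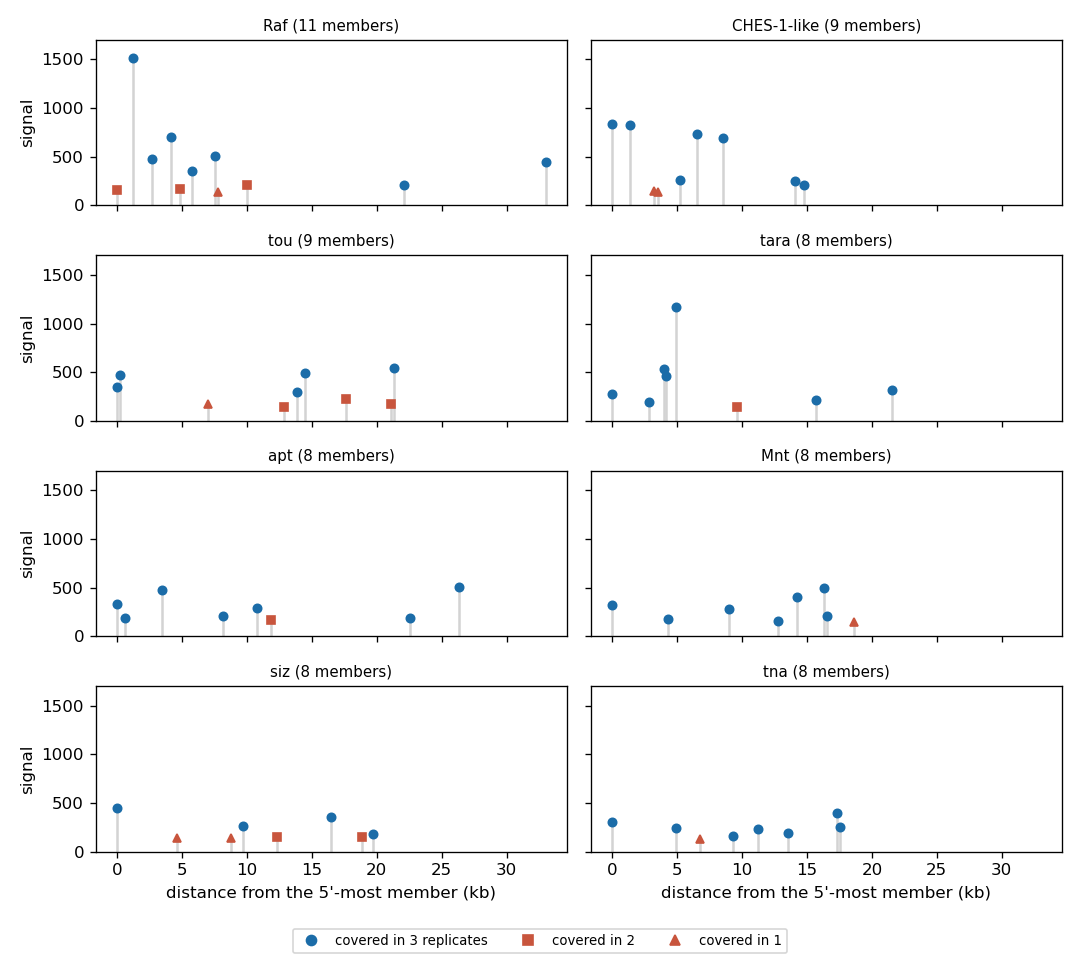
Signal of each member along the 8 host genes with 8 or more members, against its distance in kb from the 5′-most member on the gene's own strand. Circles are members that all 3 replicates cover, squares 2 and triangles 1. Raf holds 1 peak of 1518 among 10 below 700, while the values in Mnt, siz and tna stay below 500.

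The counts by pathway were read against all genes, 9.51% of which were hosts, and against the share expected from length alone. For the latter each gene was given the share of hosts among all genes in its class of eligible length, of 10 classes of about equal size. Over the 22 lists used, 576 different genes had eligible bases, and 146 of them (25.3%) were hosts, where their lengths gave 100 (17.4%). Genes in no list had 673 hosts of 8033 (8.38%), where length gave 719. The count was above that from length in 19 of the 22 lists. The lists share genes, were chosen with earlier results known and were not tested.

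By share of hosts, 4 signalling lists came first, though not by the ratio to the share from length, and the lists were not tested against each other. Genes of EGF and FGF receptor signalling, which relay secreted growth factors through receptor kinases, had 10 hosts of 20 (50%, 27.2 to 72.8) against 25.1% from length. The highest members were in edl, an antagonist of Ets factors (1199), S, which moves EGF ligands through the secretory path (970, the highest of 5), and drk, the adaptor to Ras (660). Wingless signalling had 9 of 20 (45.0%) against 26.8%, led by the glypican dlp (682), the feedback inhibitor nkd (460) and the co-receptor arr (418). Dpp and Activin signalling had 7 of 18 (38.9%) against 19.2%, led by the inhibitory Smad Dad (863), the Smad Mad (831) and sog, the secreted antagonist of Dpp (544). Hippo and planar polarity genes had 6 of 16 (37.5%) against 19.6%, led by the upstream regulators ex (519), crb (372) and kibra (316).

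The other signalling lists had fewer genes or lower shares. Hedgehog signalling had 4 hosts of 13 (30.8%) against 18.5% from length. Its highest members were in boi, a co-receptor (428), the receptor ptc (324) and Pka-C1 (181). Notch signalling had 4 of 15 (26.7%) against 19.2%. The receptor N itself had 797, the ubiquitin ligase neur 430 and fng, which adds sugar to Notch, 232. In insulin and TOR signalling 4 of 21 (19.0%) were hosts against 12.7%. The transcription factor REPTOR had 551, the receptor InR 425 and the kinase Sik3 253. JAK/STAT and immunity had 8 of 29 (27.6%) against 18.3%, led by the repressor ken (779), the NF-kappaB factor Dif (530) and Stat92E (486). The ecdysone and nuclear receptor list had 7 of 23 (30.4%), close to the 27.8% from length, led by Hr3, ImpL2, a secreted binder of insulin-like peptides (951), and the transporter E23 (643).

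The next lists are of tissues and of cell shape. Mesoderm and muscle genes had 12 hosts of 42 (28.6%) against 22.2%, led by the transcription factor zfh1 (927), mbc, which acts in myoblast fusion (803), and bves (613). Neurogenesis had 7 of 23 against 23.9%, with brat (839), grh (796) and jumu (387). Axon guidance and synapse genes had 10 of 33 (30.3%), below the 32.3% from length, with the Netrin receptor fra (689), the exchange factor trio (534) and NetA (456). Tracheal and gut regulators had 8 of 28 against 25.2%, with grh, rib (696) and Abd-B (359). Segmentation genes had 8 of 23 (34.8%) against 19.0%, with nkd, ptc and tsl (290). Adhesion and cytoskeleton genes had 16 of 52 (30.8%) against 20.4%, led by the dynein heavy chain Dhc64C (1002), cno (712) and yrt (481).

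The remaining lists cover chromatin, the cell cycle, RNA, metabolism, the clock and cell death. Chromatin genes had 10 of 61 (16.4%) against 10.6%, and their highest members were in Trl (1863), the highest of any list, trx (1489) and wde (1274). Cell cycle and replication genes had 7 of 40 (17.5%) against 7.93%, with the kinase-like trbl (573), the cyclin CycE (553) and Mnt. RNA binding and translation genes had 11 of 38 (28.9%) against 13.9%, with brat, Sxl, the switch of sex determination (428), and how (402). Central metabolism had 7 of 38 (18.4%) against 11.4%. Its highest were in Zw, the first enzyme of the pentose phosphate path (1127), the lipase bmm (917) and the lipid droplet protein Lsd-2 (612). The circadian clock list had 4 of 12 (33.3%) against 23.1%, with dco (423), cwo (349) and vri (334). In apoptosis and autophagy 1 of 12 (8.33%) was a host, Atg1 (209), below the 12.6% from length. Of 26 ribosomal protein genes with eligible bases 0 were hosts, where length gave 0.729%. This allows a share of up to 13.2% (exact 95% interval). The median eligible length of these ribosomal protein genes was 108 bp.

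**Figure D4:**
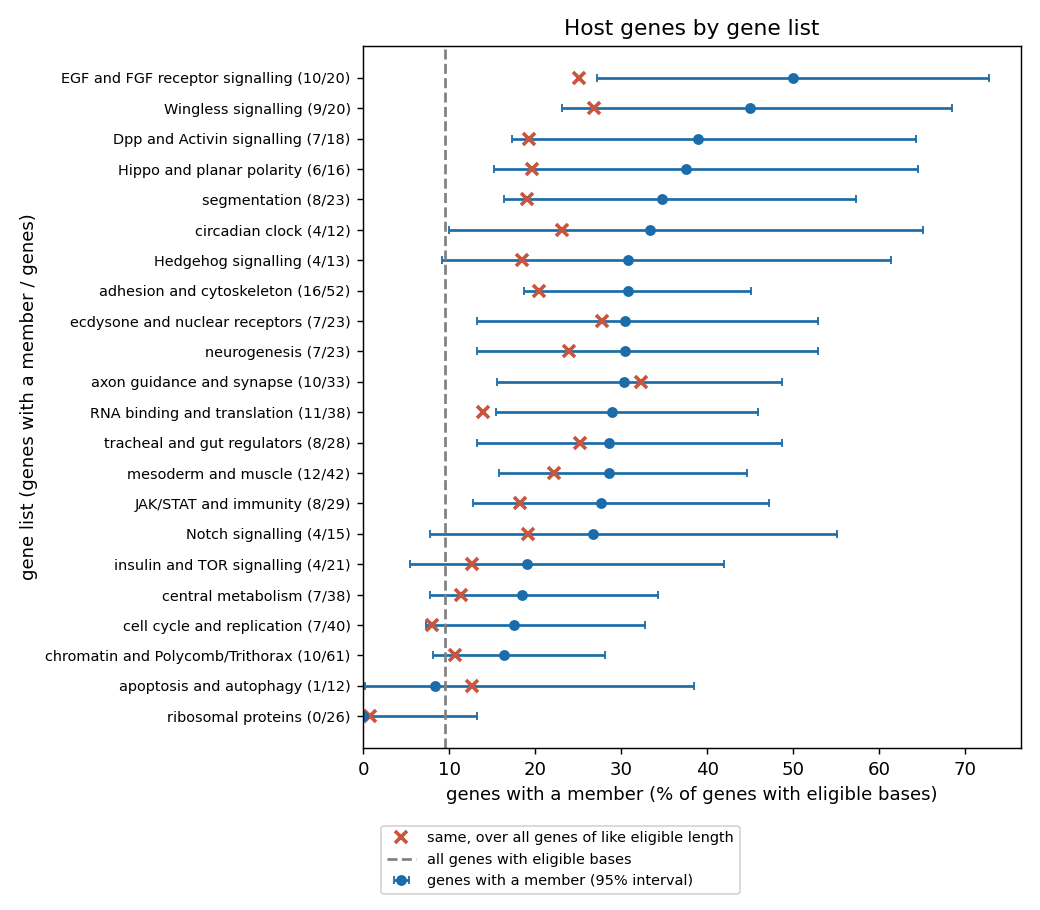
Share of genes with eligible bases that hold a member in each of 22 gene lists (points, with exact binomial 95% intervals), the share expected from the eligible length of the same genes (crosses) and the share over all genes (dashed line, 9.51%). Points lie right of the crosses in 19 lists, and the EGF and FGF list (50%) and RNA binding list (28.9%) have crosses outside their intervals.

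No known motif passed the test between the members and peaks in introns of long genes. Each of 28 motifs, on both strands, was counted within 100 bp of each summit. After Benjamini-Hochberg adjustment 0 of 28 (0%) differed by Fisher's exact test, and 2 had an unadjusted p below 0.05. The GATA motif (NGATAAG) was in 10.9% of members and 6.89% of peaks in long genes (odds ratio 1.65, 1.15 to 2.40, adjusted p = 0.125 by Fisher's exact test). The CTCF core (AGNNGGCGC) was in 1.40% and 2.88% (0.479, 0.239 to 0.967, adjusted p = 0.436 by Fisher's exact test). Mean GC content was 34.2% ± 5.72 (SD, n = 1427) in member windows, 33.8% in long genes and 39.9% ± 7.89 in the 116715 windows of the same length that tile the eligible introns of shorter genes away from summits.

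Of the motifs known from promoters, some were less frequent in members than near a TSS, without a test. The DRE (TATCGATA), the site of the transcription factor DREF, was in 3 members (0.210%), beside 0.464% of the tiled windows and 6.52% of peaks near a TSS. The Motif 1 core (GGTCACAC) was in 0.350% of members and 3.88% near a TSS, and the Motif 7 core (CAGCNCTA or CATCNCTA) in 2.80% and 10.4%, where tiles had 0.283% and 2.08%. The word TATAAAA was in 17% of members, 18.8% of peaks near a TSS and 10.3% of tiles, in DNA that was richer in A and T than the tiles. The TEAD motif (GGAATG) was in 5.68% of members and 9.78% of tiles, and the GAGA motif (GAGAG) in 22.0% and 20.6%. These shares are descriptions without a test, and a match is not a binding site.

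Words found without a motif list were counted next. Words of 8 bases, both strands together, were ranked on the 458 members of arms 2L and 2R by their share against the tiles of the same arms, and the 10 best were then counted in the 969 members and 73899 tiles of 3L, 3R, 4 and X. On those other arms 9 of the 10 were 5.57 to 9.13 times as frequent in members as in tiles. CACTGAGA was in 5.16% of members (3.85 to 6.75) and 0.605% of tiles, CACTGTAC in 4.64% and 0.509%, TACACTGA in 4.85% and 0.614%, and CAGTGTAG, whose reverse complement is the second word printed above, in 3.20% and 0.386%. ACACTGAG was in 3.82% and 0.526%, CTACACAG in 2.27% and 0.323%, CTCAGTGC in 2.99% and 0.537%, and CTGAGAGA and ACTGAGAG in 2.68% each. The word ranked first, CGGTGTAG, was in only 2 of the 969 (0.206%), beside 0.142% of tiles.

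These words are largely one sequence and its relatives, since most hold the letters CACTG or CTGAG. At least 1 of the 10 was in 180 of the 969 members (18.6%, 16.2 to 21.2) and in 3.31% of tiles. Classes of like GC content gave, for members and tiles, 15.5% against 1.88% below 30% GC, 18.1% against 3.17% from 30 to 35%, 23.8% against 3.75% from 35 to 40%, and 14.5% against 3.54% above. The share was 19.4% (15.7 to 23.6) in introns of long genes and 20.1% (16.9 to 23.6) in intergenic peaks, with intervals that overlap that of the members, and 9.09% (7.74 to 10.6) near a TSS. It was 20.3% in first introns (17.4 to 23.5) and 13.7% in later ones (9.71 to 18.5). None of these differences was tested, and overlap of intervals does not show that shares are alike.

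The words were seen at members of every height. By signal, from the lowest members to the highest in 4 equal groups, the share was 17.5%, 14.5%, 18.8% and 23.4%, with overlapping intervals and without a test. Members covered in all 3 replicates had 19.1% and those covered in 2 had 15.9%. Of the 20 highest members on all arms 3 held one, CG12769, Raf and Gug, where the share over all members was 19.1%. Over all arms 272 members in 239 of the 819 host genes held at least 1. The counts over all arms include 2L and 2R, where the words were ranked, so they are not independent of that choice.

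Copies of CACTGAGA were denser within 200 bp of the summit than farther out, but were not concentrated at the summit itself. On 3L, 3R, 4 and X there were 268 copies per Mb within 100 bp of member summits (200 to 352), 108 from 100 to 200 bp (67.1 to 166) and 15.5 to 46.4 per Mb in each further class out to 1000 bp, where the tiles had 30.4 (27.6 to 33.3). Peaks in introns of long genes had 418 copies per Mb within 100 bp (289 to 584) and 147 from 100 to 200 bp (76.2 to 258), so the pattern was not confined to shorter genes. Within 150 bp of a summit there were 67 copies at 65 members. Their median distance was 78 bp, and only 5 of the 67 lay within 25 bp, so the classes of 100 bp do not show a site centred on the summit. The word stood on the strand of the host gene in 31 of the 67 (46.3%, 34.0 to 58.9).

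**Figure D5:**
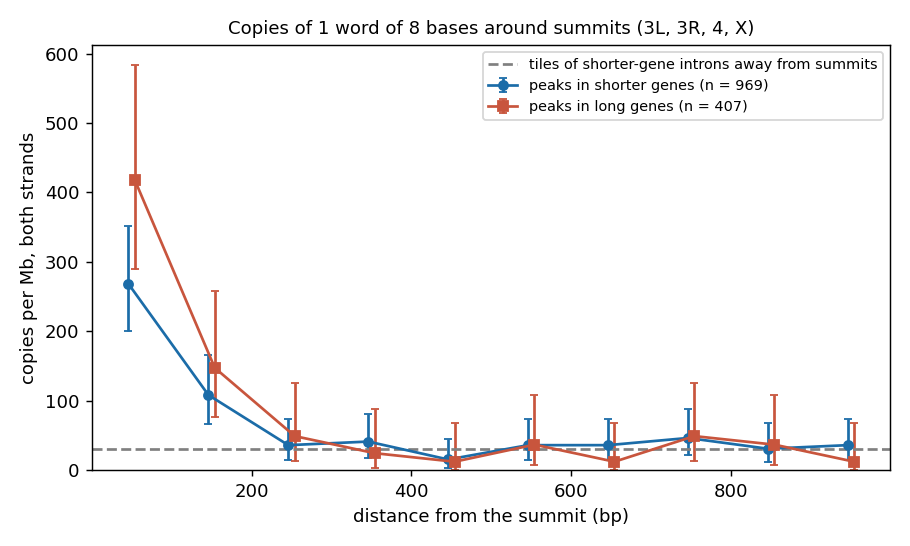
Copies per Mb of the most frequent of the 10 words, both strands, by distance from the summit in classes of 100 bp, with exact Poisson 95% intervals, at 969 members and 407 peaks in long genes on 3L, 3R, 4 and X. Within 100 bp members have 268 copies per Mb and peaks in long genes 418; between 200 and 300 bp members have 36.1, near the 30.4 of the tiles (dashed line).

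The bases beside the word were also alike, as the stretches printed at the start show. In 47 copies that could be aligned, the base just before the word was A or G in 43 (91.5%), and the base just after it was A or G in 43 (91.5%). The 3 bases that followed were all A in 26 (55.3%). Flanks of the copies in tiles were not counted, so these bases are not shown to be particular to members. Of 50 copies in member windows, 25 (50%) lay wholly in bases that the RefSeq sequence marks as repeated or of low complexity, against 30.6% of the copies in tiles. Member windows as a whole were 21.7% marked and tiles 20.7%. The summits of 5 members (0.350%) lay in an annotated transposable element, beside 6.86% of tile centres.

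The members with the word were in genes of varied kinds. That of ImpL2 had a signal of 951, with 238, 392 and 321 in replicates 1 to 3, in an intron of 10196 bp. In CG6959 it was 805, with 169, 350 and 283, and lay 19634 bp from the nearest TSS. The member in bves, a gene of a Popeye domain membrane protein, had 613, with 145, 261 and 202, and that of aop, the Ets repressor of the EGF receptor pathway, had 518, with 97.9, 218 and 184. In mew, an integrin alpha chain gene, it was 455, with 131, 178 and 156. For each of these 5, replicate 2 was highest and replicate 1 lowest, the order of the medians over all members.

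The relaxed list from pooled reads held 7001 summits of the same class, of which 20.4% were in the reproducible list. The share was 15.6% in introns of long genes, 16.4% in intergenic DNA, 32.4% near a TSS and 21.3% over all 27145 pooled peaks. That list mixes peaks with background by design, so a peak below the threshold is not shown to be bound.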

How the data were processed

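Per the labels' protocols, chromatin of az2-GFP embryos was sonicated to 200 to 800 bp and precipitated with anti-GFP; 3 biological replicates, 1 group. The deposited dm6 lists were used: 1 relaxed list per replicate (30000, 22372 and 30000 peaks), 1 from pooled reads (27145) and 1 thresholded by the irreproducible discovery rate (5786). The signal of each peak (column 7) is a value the authors deposited, taken here as linear; the summit offset (column 10) is another deposited kind of value, in bp. The unit of the signal, the caller, its version and the threshold are not given in the sources used here. Without read counts in the lists the depth is unknown; intervals cover counting error only. The dm3 lists were not used.

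Summits were classed with Ensembl BDGP6.54 (release 115) on 2L, 2R, 3L, 3R, 4 and X; entries of transposable elements were left out of genes, exons and TSSs. Shares have exact Clopper-Pearson 95% intervals and densities exact Poisson ones. Tests were two-sided Fisher's exact and exact conditional binomial tests (scipy 1.17.1), tested on simulated data. The members, the 22 gene lists (879 names, 32 unmatched) and the 28 motifs were chosen with earlier results of these data known. Named were the 20 highest members covered in all 3 replicates, genes with 3 or more members (here those with 7 or more, the rest as counts), the 3 hosts with the highest member per list and the members nearest each limit. For printed words, the highest members covered in all replicates were taken.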

Additional observations from a re-analysis of the deposited data

How the results depend on the processing

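The 2 density ratios, the 6 odds ratios, the counts of members and hosts and the count of motifs were recomputed with a TSS distance above 1000 bp, gene spans below 30 and 100 kb, the reproducible peaks of highest signal only, and each replicate left out, except that the 3 odds ratios of high signal could not be computed over the peaks of highest signal. With the peaks of highest signal the counts were 661 members and 475 host genes by construction. The odds of cover in all 3 replicates against peaks near a TSS reversed direction to 2.20 with those peaks, 1.02 with replicate lists of 2 times the length and 1.72 with whole lists. None of these values passed the test. In these settings 96.1 to 98.8% of members and 96.1 to 97.7% of the others were covered, so few uncovered peaks were left to compare. Among the peaks of highest signal, 98.8% of members and 97.4% of peaks near a TSS were covered, so lower cover of members was not seen there. Leaving out 1 replicate gave 0.653 to 0.929 for the odds against peaks near a TSS. For the odds against intergenic peaks it gave 0.935 to 1.35, which passed (1.35, adjusted p = 0.0149, Fisher's exact test) only without replicate 1. The cause was not tested. Among alternatives chosen after seeing the data, the ratio of shorter over long genes was 1.10 between 2000 and 4000 bp from a TSS and did not pass there. Otherwise it was 1.34 to 1.90 by distance, and 2.03 without the 8 richest host genes. The ratio of first over later introns passed under each alternative. The count of motifs that differed was 0 under each. No paired analysis was possible because there is 1 group. Motif shares changed with the window length, which alters how many bases are searched. Depth could not be read from peak lists.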
